A study of Mus musculus with 6 samples.

Results

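Cytosolic ribosomal protein genes encode the protein part of the ribosome, the particle that reads messenger RNA and builds protein. They were taken by name as every gene of the count files called Rpl or Rps followed by a number and at most 1 letter, plus Rplp0, Rplp1 and Rplp2, with at least 100 counts summed over the 6 libraries. Of 23284 genes, 80 had such a name and 73 reached 100 counts. These 73 are 40 genes of the large subunit, 30 of the small subunit and the 3 stalk genes.

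A ribosome has a small subunit, which holds the messenger RNA and matches codons, and a large subunit, which joins amino acids and carries a flexible stalk that recruits elongation factors. Each protein is normally needed in fixed proportion to the ribosomal RNA, and its messenger RNA belongs to the TOP class, which begins with a run of pyrimidine bases and is translated more when the growth-sensing kinase complex mTORC1 is active. In the small intestine, crypt cells that divide and lymphocytes that grow are known as heavy users of ribosomes, and feeding after a fast is known to raise protein synthesis.

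RNA came from jejunum and ileum together, from 8-week-old male mice fasted overnight and refed for 6 h. The 3 control libraries were from wild-type (WT) mice, with no allele named, and the other 3 were from SHP-KO mice, which lack the orphan nuclear receptor SHP (gene Nr0b2). The labels give no strain and no cell type for the deletion. They also do not say that libraries came from separate mice, so p-values measure no more than how these libraries scatter, and that scatter may be technical. Nr0b2 had 31, 14 and 23 counts in the WT libraries and 1, 0 and 0 in the SHP-KO libraries, which matched the labels.

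Library totals ran from 11265437 to 13511800 counts in WT and from 7956528 to 9289543 in SHP-KO, so every SHP-KO library was shallower than every WT library. No pair of libraries of a genotype held the same values, and counts differed by 1.33 to 1.97 times sampling noise (chi-square per degree of freedom over genes), with a fitted common coefficient of variation (CV) of 0.0297. At this spread 8543 of 12106 tested genes passed (70.6%), so passing is the rule rather than the exception in these data. Enterocyte markers were abundant in every library, with a summed level of 94380 to 96980 CPM in WT and 121200 to 121900 CPM in SHP-KO. CPM are TMM-scaled counts relative to library size, where TMM is edgeR's correction for library composition. Of these 12 markers 8 rose, 3 fell and 1 did not pass, beside 35.2% higher and 35.4% lower among all tested genes.

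Ribosomal protein transcripts were lower in SHP-KO as a family. They held 2.18%, 2.16% and 2.15% of all counts in the WT libraries and 1.37%, 1.35% and 1.40% in the SHP-KO libraries. The groups did not overlap, at 2.16% ± 0.014 in WT and 1.37% ± 0.023 in SHP-KO (SD, n = 3). The summed level went from 21370 ± 109 to 13910 ± 234 CPM, or to 65.1% of WT. The large subunit genes took 1.04% to 1.06% of the counts in WT and 0.654% to 0.670% in SHP-KO. The small subunit genes took 0.937% to 0.946% in WT and 0.581% to 0.606% in SHP-KO. In bulk tissue, fewer cells rich in these transcripts and less RNA per cell cannot be told apart.

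**Figure D1:**
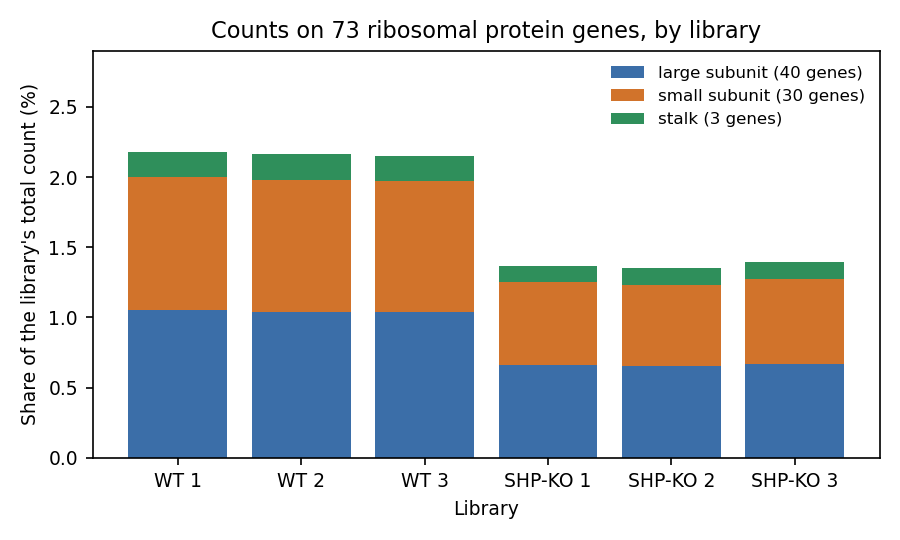
Share of each library's total count (y axis, percent) that fell on the 73 ribosomal protein genes, by library (x axis), stacked by large subunit, small subunit and stalk. The 3 WT bars reach 2.15% to 2.18% and the 3 SHP-KO bars 1.35% to 1.40%, with both subunits shorter in SHP-KO.

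Member by member, 71 of the 73 genes fell and 2 rose, and none failed the test (adjusted p under 0.05, edgeR's quasi-likelihood test with Benjamini-Hochberg adjustment). Among all tested genes 35.4% fell and 35.2% rose. The median log2 fold change of the members was -0.66, with a middle range (quartiles) of -0.81 to -0.54, against -0.012 over all tested genes, whose quartiles were -0.42 and 0.44. A fall of at least 1.5-fold was seen in 48 members, beside 17.5% of all tested genes (37.1% in either direction), and a fall of at least 2-fold in 3 members, beside 8.15%. The count at 2-fold moved with the settings: it was 5 without WT replicate 2 or without scaling factors, 6 without a filter on low counts and 1 without the members that overlap another gene. The family's fold changes were therefore moderate in size and mostly of 1 sign. Their SD was 0.259 on the log2 scale, against 1.00 over all tested genes.

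No member's WT and SHP-KO libraries overlapped in CPM. In 71 members all 3 SHP-KO libraries lay below all 3 WT libraries, as in 36.1% of all tested genes, and in 2 they lay above, as in 35.9% (72% for either). Other abundant and short transcripts were spread around 0. Of 324 other genes with a mean of at least 100 CPM and at most 1500 exonic bases, 106 were called lower and 170 higher, and their median was 0.11. Over 1812 other genes of at least 100 CPM, of any length, the median was 0.0097 and the SD 0.703.

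**Figure D2:**
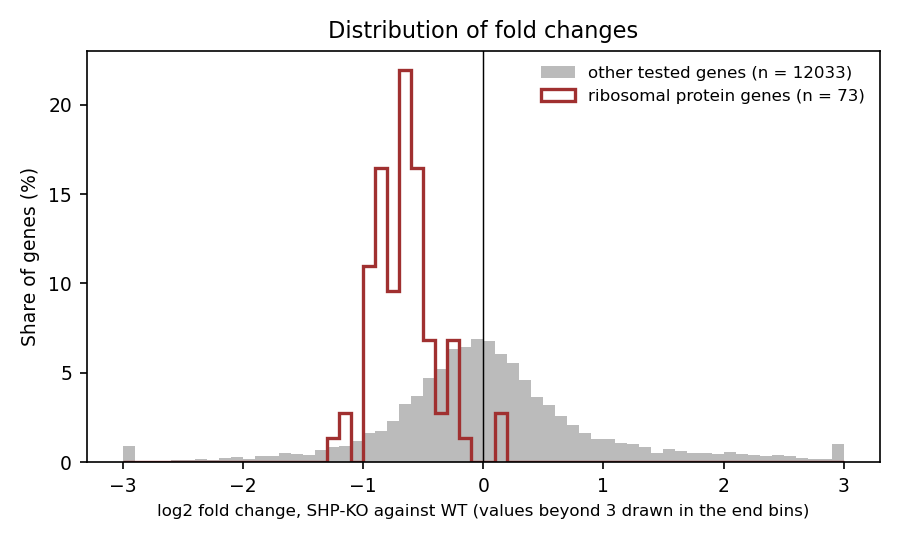
Distribution of the fitted log2 fold change, SHP-KO against WT (x axis), as a share of genes (y axis, percent), for the 73 ribosomal protein genes (red line) and the 12033 other tested genes (grey). The red line lies mostly between -1 and 0, around its median of -0.66, while the grey bars centre near 0.

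Both subunits fell by a like amount. The median log2 fold change was -0.67 over 40 large subunit genes, of which 39 fell, and -0.63 over 30 small subunit genes, of which 29 fell. These medians are descriptions, and their difference was not tested. Members were spread over 19 chromosomes, with 14 on chromosome 7 and 4 on the X chromosome. The X-linked genes fell too: Rps4x went from 423.6 ± 5.04 to 229.4 ± 0.593 CPM (log2 -0.88).

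The stalk genes fell unequally. Rplp0 encodes the base of the stalk, to which pairs of Rplp1 and Rplp2 proteins attach. Rplp0 was at 692.3, 733 and 703.3 CPM in WT and at 355.1, 359.2 and 368.9 CPM in SHP-KO. It fell to 50.9% of WT (log2 -0.97, SE 0.029, adjusted p 4.4e-49, edgeR). Rplp1 went from 686.6, 696.4 and 675.7 CPM to 490.9, 500.1 and 519.2 CPM (73.4% of WT, log2 -0.45). Rplp2 went from 369.9, 364.7 and 349.8 CPM to 305.3, 301.5 and 321.8 CPM, or 85.6% of WT (log2 -0.22). The 3 genes thus differed in size of fall, each with all SHP-KO libraries below all WT libraries. Rpl12, whose protein sits beside the stalk base, was at 288.9, 265 and 281.1 CPM in WT and at 150.9, 144 and 144.8 CPM in SHP-KO (log2 -0.93).

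To ask which members differed from the family, libraries were rescaled by their summed ribosomal protein count and all genes were tested again, a setting chosen after seeing the data. Against the family as a whole, 29 members fell more, 21 fell less or rose, and 23 did not pass. The sum includes every member tested, so members were bound to lie on both sides of it. On this scale 81.7% of all 12106 tested genes were called, 9.71% lower and 71.9% higher, because the scale itself falls in SHP-KO. Rplp0 fell more than the family (log2 -0.35, adjusted p 1.4e-18), whereas Rplp1 (log2 0.17, adjusted p 4.7e-07) and Rplp2 (log2 0.40, adjusted p 5.1e-20) fell less. The smallest of these calls are below 1.1-fold, such as Rps9 at log2 0.078.

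The deepest falls were those of Rpl11, Rpl32 and Rpl5. Rpl11 and Rpl5 proteins travel together with the smallest RNA of the large subunit and, when ribosome assembly stalls, bind the p53 regulator Mdm2. Rpl11 (chromosome 4 from 135605863 to 135609286, mm9) was at 244.2, 222.7 and 242.5 CPM in WT and at 105.2, 103.1 and 100.7 CPM in SHP-KO. It fell to 43.5% of WT (log2 -1.20, SE 0.039, adjusted p 1.2e-45, edgeR). Rpl5 (chromosome 5 from 108329547 to 108338024, mm9) went from 212.6, 214.2 and 210.9 CPM to 96.1, 98.3 and 102 CPM (46.5% of WT, log2 -1.10). Rpl5 overlaps Fam69a over 47.7% of its exonic bases, where reads that touch both genes were not counted. Rpl32, a large subunit protein, went from 219.7, 223 and 212 CPM to 96.3, 99.3 and 98.2 CPM (log2 -1.15). In the rescaled test they lay below the family by 0.58, 0.48 and 0.53 on the log2 scale for Rpl11, Rpl5 and Rpl32. Their choice as the deepest falls fixed that direction, so it is no second result.

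Other deep falls came from both subunits. Rps18, a protein of the small subunit head, went from 282.6, 277 and 277.1 CPM to 145.3, 131.1 and 144.5 CPM, or 50.2% of WT (log2 -0.99, SE 0.036). Large subunit genes Rpl27a, Rpl36a, Rpl35 and Rpl10a fell to between 51.5% and 53.4% of WT, with log2 values of -0.96, -0.93, -0.90 and -0.90. Rpl27a was the most scattered of these, at 151.9, 123 and 131.8 CPM in WT against 72.4, 68.1 and 69.7 CPM in SHP-KO. Rps3, which lines the channel where messenger RNA enters, fell from 468 ± 11.8 to 258 ± 2.24 CPM (log2 -0.86). Rps20, a neighbour in the small subunit head, fell from 417.8 ± 10.3 to 225 ± 6.23 CPM (log2 -0.89).

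**Figure D3:**
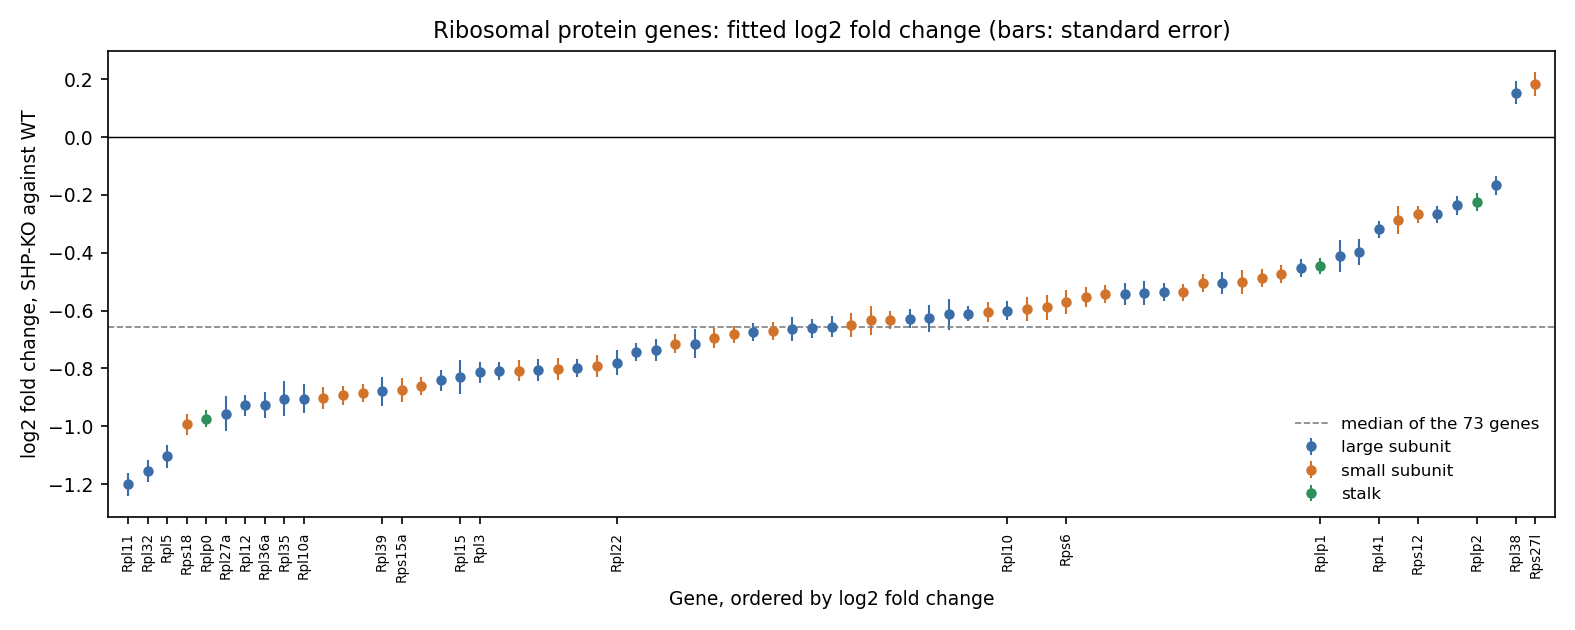
Fitted log2 fold change, SHP-KO against WT (y axis), of each of the 73 ribosomal protein genes (x axis, ordered by value, with names for the members chosen by the naming rule), coloured by subunit, with bars for the standard error and a dashed line at the median. Values run from -1.20 for Rpl11 to 0.18 for Rps27l, only Rpl38 and Rps27l lie above 0, and the subunits are interleaved.

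Members whose loss of 1 copy is known to cause Diamond-Blackfan anaemia, a failure of red cell formation, include Rpl11, Rpl5 and several more. Those given here were picked after their values were seen and are not the full list for this disease. The members that fell least were not checked for it, so these values do not describe the disease genes as a set. One is Rps19, the first such gene known, which went from 203.9, 215.3 and 209.1 CPM to 127.5, 115.4 and 120.5 CPM (57.8% of WT, log2 -0.79). Rps7 and Rps26 fell to 57.1% and 60.9% of WT, and Rps24, Rpl35a and Rps10 to 62.3%, 64.8% and 66.2%. All SHP-KO libraries lay below all WT libraries in each of them, as in 36.1% of all tested genes. The set as such was not compared with the rest of the family.

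Further members show the common fall of the family and how their libraries scatter. Rpl4, which lines the tunnel through which the new protein leaves, had the largest summed count of all members, 43341. It went from 785, 804.2 and 769.4 CPM to 515.4, 508.3 and 520.8 CPM, or 65.5% of WT (log2 -0.61). Rpl13a, also known for silencing inflammatory messages once released from the ribosome, went from 508.1, 484.5 and 509.4 CPM to 328.7, 300.9 and 312.4 CPM (log2 -0.67). Rps2, at the messenger RNA entry, went from 298.3, 303.4 and 311 CPM to 199.7, 191.3 and 209 CPM (log2 -0.61). Rpl19, of the large subunit, was among the tightest, at 273, 272.4 and 278 CPM in WT against 152.8, 153.3 and 153.3 CPM in SHP-KO (log2 -0.84). Rps21 was looser in WT, at 221.3, 184.7 and 195.5 CPM, against 133.8, 126.1 and 128.9 CPM in SHP-KO (log2 -0.63). Over all 73 members the median CV within a genotype was 2.80% in WT and 3.09% in SHP-KO, far below the size of these falls.

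Rps6 is the small subunit protein that S6 kinases phosphorylate when mTORC1 is active. Its transcript went from 155.1, 165.2 and 155.5 CPM to 106.5, 102.6 and 110.9 CPM (log2 -0.57, SE 0.041, adjusted p 1.0e-22, edgeR). Its fall did not differ past the threshold from that of the family (log2 0.048, SE 0.044, adjusted p 0.30). Rps27a, made as a fusion with ubiquitin, fell from 243.4 ± 5.0 to 165.8 ± 6.57 CPM (log2 -0.55).

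Several genes fell only a little. Rps29, Rpl8, Rpl27 and Rpl24, from both subunits, ended between 72.0% and 75.9% of WT. Rpl18, a large subunit protein, went from 279.7, 274.4 and 271.3 CPM to 246.4, 236.9 and 251.9 CPM, or 89.0% of WT (log2 -0.17, SE 0.033). Rpl28, Rpl7a, Rps12 and Rps28 ended between 82.0% and 84.9% of WT, with log2 values of -0.24, -0.27, -0.27 and -0.29. Rpl41, which encodes one of the shortest known proteins, ended at 80.1% (log2 -0.32). Rpl18, Rpl28, Rpl7a, Rps12, Rps28 and Rpl41 each fell less than the family in the rescaled test, a direction fixed by their choice as small falls.

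The 2 members that rose were Rps27l and Rpl38. Rps27l is a near copy of Rps27 known as a p53 target. It lies on chromosome 9 from 66793925 to 66797316 (mm9). Its level was 135.1, 123.7 and 137.7 CPM in WT and 154.8, 142 and 154.8 CPM in SHP-KO (log2 0.18, SE 0.041, adjusted p 4.6e-05, edgeR). Rpl38, a large subunit protein linked in mouse embryos to the translation of homeobox messages, lies on chromosome 11 from 114529857 to 114533645 (mm9). Its level was 115, 115.3 and 121 CPM in WT and 131, 126.9 and 133.2 CPM in SHP-KO (log2 0.15, SE 0.041, adjusted p 0.00057, edgeR).

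For both, the gap between the lowest SHP-KO and the highest WT library was small, under 6 CPM, unlike the gaps of the deep falls. Against the family they stood highest, at log2 0.80 for Rps27l and 0.77 for Rpl38 (adjusted p 3.1e-35 and 3.4e-33, edgeR). Since they were picked as the members that rose, this place was fixed by that choice and adds no support. The rises themselves moved with the settings: without a filter on low counts they were 0.12 and 0.093, and without WT replicate 2 that of Rps27l was 0.13. With the assumed CV of 0.2 described below neither passed (adjusted p 0.60 and 0.67, edgeR exact test).

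**Figure D4:**
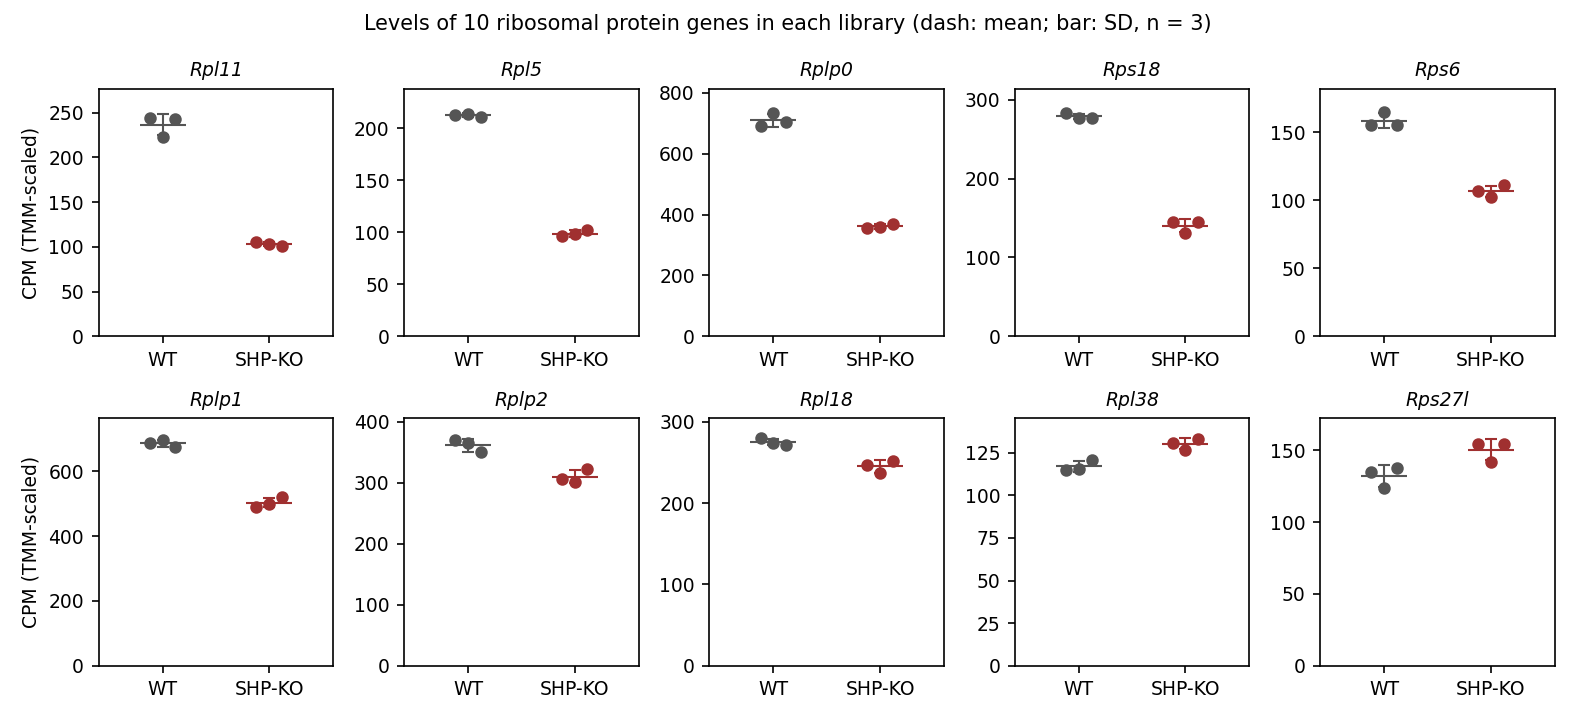
TMM-scaled level (y axis, CPM from 0) of 10 ribosomal protein genes in each of the 3 WT and 3 SHP-KO libraries (points), with mean (dash) and SD (bar). Rpl11, Rpl5, Rplp0 and Rps18 sit near or below 50.9% of WT in SHP-KO, Rplp2 and Rpl18 at 85.6% and 89.0%, and Rpl38 and Rps27l slightly above WT.

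Promoters of the members were searched for letters known from promoters of this family. Such a search describes the promoters and not the difference between genotypes. Sequences are from RefSeq (GRCm38.p6), as windows of 250 bases before to 50 after a gene's start. Of the 73 members 53 had at least 1 window, 63 windows in all. The 100 bases shown run from 80 before the annotated start to 20 after it, for the deepest fall and its partner gene and for both rises. Capitals mark CCGGAAG, the core that ETS factors such as GABP bind, and CTTTCC, a pyrimidine run. Such runs are typical of starts in this family, but CTTTCC is marked wherever it stands in the stretch.
Rpl11 at chr4:136053374-136053473, minus strand: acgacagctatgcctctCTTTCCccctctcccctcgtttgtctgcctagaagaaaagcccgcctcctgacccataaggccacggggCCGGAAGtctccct
Rpl5 at chr5:107900448-107900547, plus strand: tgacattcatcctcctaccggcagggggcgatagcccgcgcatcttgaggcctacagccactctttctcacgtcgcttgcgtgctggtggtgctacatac
Rpl38 at chr11:114668500-114668599, plus strand: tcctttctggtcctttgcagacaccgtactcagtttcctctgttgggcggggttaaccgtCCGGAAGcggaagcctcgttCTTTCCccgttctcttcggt
Rps27l, the first of its 2 windows, at chr9:66946006-66946105, plus strand: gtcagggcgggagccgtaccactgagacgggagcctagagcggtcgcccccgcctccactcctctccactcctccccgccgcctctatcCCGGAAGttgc

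Rpl11 and Rpl38 hold both motifs although one fell and the other rose, the Rps27l stretch holds CCGGAAG alone, and the Rpl5 stretch holds neither. CTTTCC stands well before the annotated start in Rpl11 and directly at it in Rpl38. On either strand, CCGGAAG was found in 34.9% of the members' windows and in 8.86% of all 32851 windows of the same length. CTTTCC was found in 49.2% and 26.6%, anywhere in the window, so these are not shares of genes that start with a pyrimidine run. AAGATGGC, the core bound by YY1, was found in 9.52% and 2.75%, and TATAAA in 9.52% and 13.6%. CCGGAAG and CTTTCC do not overlap each other on either strand in the stretches shown. Because the motifs were chosen as known from this family, a higher share in its windows is no result about SHP-KO. A match describes the letters in a window and says nothing of binding.

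Levels between members are compared per exonic length, as RPKM, the TMM-scaled count per unit of exonic length and of library size, and only roughly, because reads with several alignments were not counted. The mean level over 6 libraries ran from 27.1 to 1271 RPKM, a 46.8-fold range, with a median of 291.6 against 6.04 over all tested genes. Rplp1 was highest, at 1466 ± 22.1 RPKM in WT and 1076 ± 30.9 in SHP-KO. Rps12 (1054 ± 18.4 RPKM in WT) and Rpl41 (1072 ± 32.3) came next and were within their spread of each other. Lowest were Rps15a at 35.1 ± 0.703 RPKM in WT, Rpl15 at 47.7 ± 3.38 and Rpl22 at 86.3 ± 1.95. Rps15a is annotated with 5134 exonic bases in these files, which lowers its value per length.

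Copies elsewhere in the genome bear on these levels. Ribosomal protein genes are known for many processed pseudogenes, which are intronless copies of their messages. In GENCODE M21 transcripts, 67 of the 73 members had at least 1 stretch of 100 bases, the read length, that also stood in a transcript of another locus. The median share of such stretches was 23.5%, and Rpl36a and Rps6 had the highest, both at 83.6%. The 16 members above 50% all fell (median log2 fold change -0.68), as did 5 of the 6 with no shared stretch (median -0.71), the exception being Rps27l. These counts stand beside 35.4% lower among all tested genes. Whether copies bear on the fold changes was not tested. Only exact copies within annotated transcripts were searched.

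Across the 73 members, the log2 fold change had a Spearman rho of -0.047 with the share of shared stretches, 0.086 with the level in WT CPM and -0.25 with exonic length. These are descriptions over genes that share the same 6 libraries. With the level per length in WT (RPKM) rho was 0.22. The values for length and for level per length were thus of like size and opposite sign, and those for CPM and copy share were nearer 0. Level per length is CPM divided by exonic length, so its value is not separate from those for CPM and length.

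The 7 names left out by the minimum of 100 counts were of 2 kinds. Rpl3l, Rpl10l and Rpl39l are copies known mainly from muscle or testis, and they had 1, 0 and 5 counts in all 6 libraries together. Their widely expressed counterparts were abundant and fell: Rpl3 from 254.7 ± 11.7 to 144.8 ± 3.45 CPM, Rpl10 from 347 ± 9.66 to 229 ± 5.60 CPM and Rpl39 from 112.2 ± 1.06 to 61.1 ± 4.40 CPM.

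The other 4, Rpl26, Rpl30, Rpl34 and Rps27, encode ordinary ribosomal proteins but had 0, 4, 43 and 41 counts. The count files list a second gene over their exons. Gm15772 covers 95.8% of the exonic bases of Rpl26, Gm12191 76.0% of Rpl30, Rpl34-ps1 67.2% of Rpl34 and Gm9846 60% of Rps27. Those 4 second genes had 0 counts in all libraries. Reads that touch exons of both genes are dropped by featureCounts unless its overlap option is set, and the command in the file headers does not set it. Exact shared stretches were 19.1%, 14.5%, 5.79% and 40.1% of these genes' transcripts, within the range of counted members. Their counts are not read as levels here, and Rps27 cannot be set beside its paralog Rps27l.

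**Figure D5:**
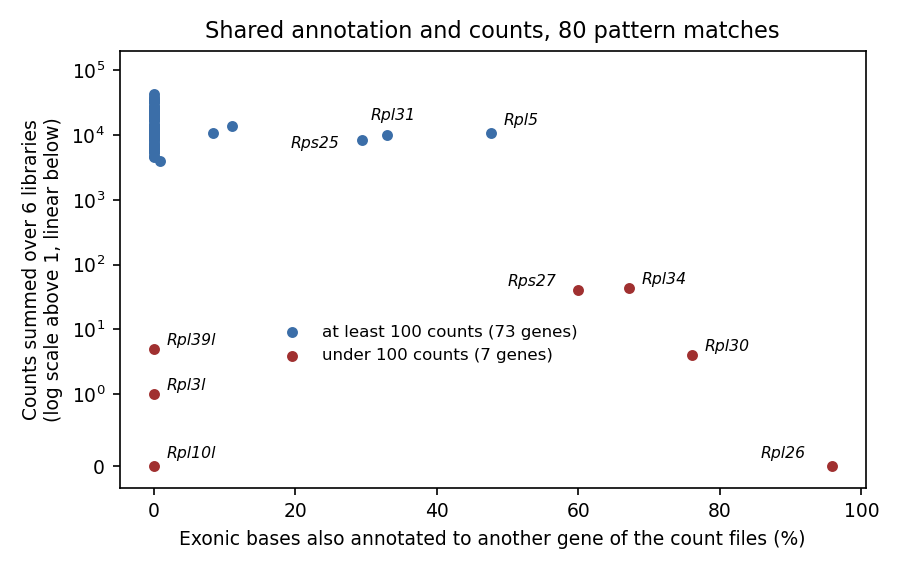
Counts summed over 6 libraries (y axis, log scale above 1) against the share of exonic bases also annotated to another gene of the count files (x axis, percent) for the 80 matching names. Rpl26, Rpl30, Rpl34 and Rps27 combine a share of 60% to 95.8% with at most 43 counts, while Rpl3l, Rpl10l and Rpl39l have no shared base.

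The nearest members on either side of the minimum were far apart, with Rpl35 at 4031 counts and Rpl34 at 43. Of the 73 members, 7 overlapped another gene over some of their exons, from 0.0975% (Rpl13a) to 47.7% (Rpl5). Without these 7, 64 of 66 members fell and the median was -0.63.

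Ribosome components outside the name pattern fell as well. Gnb2l1, which encodes the small subunit scaffold RACK1, went from 481.8, 505 and 488.2 CPM to 269.3, 261.2 and 281.4 CPM (log2 -0.86). Rpsa, a small subunit protein also known as a laminin receptor, fell by 0.46 on the log2 scale. Fau, a ubiquitin-like fusion of the small subunit, fell least, from 645.8 ± 5.69 to 579.9 ± 29.3 CPM (log2 -0.16). All 4 genes of this list that the files hold fell, beside 35.4% of all tested genes. Of 4 tested paralogs, Rps4y2, Rpl22l1 and Rpl7l1 fell and Rpl36al rose (log2 0.25), beside 35.2% higher among all tested genes.

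Elongation factors and other TOP-class messages mostly fell too, 14 of 20 tested, with 1 rise (Vim) and 5 not passing. This stands beside 35.4% lower and 35.2% higher among all tested genes. Their median log2 fold change was -0.60. Eef1a1, which brings aminoacyl-tRNA to the ribosome, fell from 2357 ± 79.4 to 1291 ± 39.4 CPM (log2 -0.87). Eef2, which moves the ribosome along the message, fell from 2177 ± 89.7 to 1340 ± 18.7 CPM (log2 -0.70), and Npm1, a nucleolar chaperone, by 1.32 on the log2 scale. Eef1g and Eef1d, subunits of the factor that recharges Eef1a1, had values of -0.078 and 0.11 and did not pass.

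Other parts of the machinery were called in both directions, and their counts stand beside 35.4% lower and 35.2% higher among all tested genes. Of 29 initiation factors 11 fell, 8 rose and 10 did not pass (median log2 -0.057), with Eif4g2 at -0.32, Eif2s2 at -0.65 and Eif2b4 at 0.86. Of 60 ribosome biogenesis genes 26 fell, 9 rose and 25 did not pass (median -0.23), with the nucleolar protein Ncl at -1.03, Ddx10 at -1.5 and Sdad1 at 0.97. The 19 tested genes of RNA polymerase I gave 5 lower, 4 higher and 10 not passing, with Polr1c at -0.62, Polr2h at 0.67 and Rrn3 at 0.69. Of 76 mitochondrial ribosomal proteins 11 fell, 23 rose and 42 did not pass (median 0.073), among them Mrps15 at 0.86, Mrpl12 at 0.42 and Mrpl50 at -0.73. The share of members that fell in the cytosolic family, 97.3%, thus stood beside 11 of 76 in the mitochondrial one.

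Among 22 regulators of translation and growth 11 fell, 5 rose and 6 did not pass, beside the same 35.4% and 35.2% of all tested genes. Myc, a transcription factor that drives ribosome genes, fell from 5.18 to 1.48 CPM (log2 -1.76, SE 0.25). Larp1, which binds TOP messages, fell by 0.40 and Eif4ebp1, a repressor of cap-dependent translation, by 1.46 on the log2 scale, while Rps6kb2, an S6 kinase, rose (log2 1.22). Ddit4, an mTORC1 inhibitor, fell by 1.62. Mtor itself was at log2 0.013 (SE 0.078) and did not pass. Small nucleolar RNA host genes gave 4 lower, 2 higher and 4 not passing of 10, with Snhg11 at 3.61, Snhg8 at 0.46 and Snhg4 at -1.39.

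Markers of other cell types moved in the same libraries as the family. Their counts stand beside 35.4% lower and 35.2% higher among all tested genes. Of 12 markers of dividing crypt cells 11 fell and Mcm2 rose, and their summed level went from 228.5 to 230.1 CPM in WT to 91.4 to 101.3 CPM in SHP-KO. All 12 B cell markers fell, from a summed 103.7 to 109.1 CPM to 2.63 to 4.96 CPM, with Cr2, Faim3 and Fcer2a at 0 in SHP-KO. Of 8 ileum markers 7 fell (20790 to 21080 against 4154 to 4215 CPM) and of 8 proximal markers 7 rose (8004 to 8086 against 27550 to 28010 CPM). Of 9 T cell markers 7 rose and 1 fell, from a summed 42.6 to 46.4 CPM in WT to 71.2 to 77.5 CPM in SHP-KO, opposite to the B cell markers. All 7 goblet cell markers rose (2609 to 2688 against 7476 to 7605 CPM), as did all 8 enteroendocrine markers (141.0 to 146.7 against 471.3 to 491.9 CPM) and all 10 smooth muscle markers (377.2 to 380.9 against 1378 to 1416 CPM). The part of these markers' cell types or of the gut segment in the fall of ribosomal protein genes was not tested, and for the segment it cannot be told apart from genotype.

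The call count depended on the spread that is assumed. With the CV set to 0.2 in an edgeR exact test, 48 members fell (against 15.5% of tested genes), none rose (against 17.9%, or 33.4% in either direction) and 25 did not pass, the smallest fall that passed being -0.59 on the log2 scale (Rps13). At an unadjusted p under 0.05 that test gave 60 lower and 0 higher, beside 19.7% and 21.4% of all tested genes. All 73 passed in DESeq2 and limma-voom, as in the quasi-likelihood test. At an assumed CV of 0.2, members with falls around 1.5-fold sit at the edge, such as Rps13, which passed (adjusted p 0.0436), and Rps6, which did not (adjusted p 0.0501). In the authors' deposited table, 50 of the 73 members were lower at an adjusted p under 0.05 and none higher, beside 15.6% and 19.0% of its 12939 genes. At an unadjusted p under 0.05 the authors' deposited table gives 62 lower and 0 higher, beside 20.1% and 22.6% of its genes. There Rpl11 had a log2 fold change of -1.22 and Rps27l 0.17 (adjusted p 0.63).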

How the data were processed

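Intestinal RNA of 3 WT and 3 SHP-KO libraries was read as 100 bp reads. Per the submitters' processing notes, bcl2fastq 2.17.1.14, Trimmomatic 0.38, FastQC 0.11.5, STAR 2.6.0c and edgeR were used with mm9. No source used here gives their settings. The deposited counts per gene were made by the authors with featureCounts 1.5.2, unstranded and over exons, per the file headers. Neither multi-mapping nor overlapping reads were counted, so genes with copies or overlaps are undercounted and strands cannot be told apart. The authors' deposited comparison table gives log2 fold changes, p-values and adjusted p-values.

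All 12106 genes that passed filterByExpr (minimum count 10) were fitted at once with edgeR 4.0.16 in R 4.3.3 (TMM, robust quasi-likelihood, 1 factor), with Benjamini-Hochberg adjustment over all of them and a threshold of 0.05. All 73 members passed the filter. CPM and RPKM are TMM-scaled, and errors are SD over 3 libraries or SE of the fit. Depth of 7956528 to 13511800 counts gave every member at least 4031 counts. On simulated counts (11886 genes tested, CV 0.05) 48 of 50 genes changed 1.5-fold and 23 of 50 changed 1.25-fold were recovered. That CV is above the fitted 0.0297, and the changed genes could hold far fewer counts than any member. These rates are therefore not recovery rates for this family.

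Members and gene lists were chosen with earlier results of these data known. By rule, named members were up to 10 of the largest rises and 10 of the largest falls with groups that do not overlap, the 3 highest and lowest per length, the stalk genes, Rps6, paralog pairs and those nearest the count minimum. From each pathway list up to 3 genes with the smallest p were named, with Mtor, Myc and Larp1. All other members named with values and Eef1g, Eef1d, Vim and Rpl7l1 were chosen after their values were seen. Alternatives were other scalings, filters and tools (DESeq2 1.42.0, limma 3.58.1), an assumed CV, a replicate block and leaving out each library. Figures were drawn with matplotlib 3.10.9. A few genes that the lists or the naming rule take are not reported here.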

Additional observations from a re-analysis of the deposited data

How the results depend on the processing

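There were 71 falls and 2 rises, as in the report, under DESeq2 size factors, upper quartile scaling, no scaling factors, TMM without the family, no filter, a filter of 50 counts, DESeq2, limma-voom, a fit without robust estimation and with any 1 library left out. With the exact test at an assumed CV of 0.2, 48 members passed and 0 were higher. The median log2 fold change was -0.715 without a filter on low counts, where the TMM factors also changed, and the cause was not tested further. Other alternatives kept it between -0.617 and -0.693, and without Rps27l 1 rise was left. Libraries of the same number did not deviate together (r = 0.039, 0.049 and -0.0081 over 8893 genes), so the numbers were not taken as pairs. With the replicate block 73 members passed and the median was -0.654, and 8573 genes were called in place of 8543. Of 391 values of 23 named genes over 17 settings, 384 kept their side of the threshold, 7 lost it (all with the assumed CV) and none changed sign. Every member had at least 4031 counts, so counting error is small for all 73, but Rpl26, Rpl30, Rpl34 and Rps27 could not be measured.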
